A study of Mus musculus with 4 samples.

Results

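Transcription factors that set and keep the identity of lung epithelium were described as a group of 10 mouse genes, namely Nkx2-1, Foxa1, Foxa2, Gata6, Cebpa, Cebpb, Cebpd, Klf5, Sox9 and Grhl2. They were chosen by name and not by a rule on their measured values, though earlier results of these data were known. All 10 were found by Entrez identifier among the 28096 genes of the deposited tables. Alveolar type II cells are the epithelial cells of the alveolus that make surfactant. They were sorted from mouse lung as cells with EpCAM and without CD24, CD45, CD31 and Pdpn on the surface. The cells were grown in matrigel in BEGM medium for 4 days with 100 nM 4-hydroxytamoxifen, the ligand that activates the CreERT2 recombinase, and for 1 day without it, before polyadenylated RNA was sequenced. The 4 libraries analysed here share 1 genotype label, which calls them wild type for Etv. The design text names 3 genotypes of 4 mice each, all of them with RosaCreERT2. The first has neither Etv allele, the second adds Etv5loxp/loxp, and the third adds both Etv4KO/KO and Etv5loxp/loxp. The first alone has neither, as the label reads, though the labels do not number the genotypes. No age or sex is given. RosaCreERT2 is expressed from a locus that is active in nearly all cell types, so recombination is not limited to type II cells by the allele itself. There was 1 group only, so what follows describes levels and their spread between libraries, not an effect of genotype. Libraries are numbered 1 to 4 in accession order.

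NKX2-1 is a homeodomain factor that marks lung epithelium from its first appearance and directly activates surfactant genes. FOXA1 and FOXA2 are forkhead factors that open chromatin, GATA6 is a zinc finger factor of the distal lung, and the C/EBP proteins are leucine zipper factors that drive type II maturation and acute phase genes. KLF5 and GRHL2 act in the epithelial barrier and in repair of the alveolus, and SOX9 marks progenitors at the distal tips of the embryonic lung. In mouse lung tumours, loss of NKX2-1 is known to let stomach genes come on.

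The regulatory sequence just upstream of the genes is shown for the members that the RefSeq promoter table holds, since the FOXA and C/EBP pairs are compared with each other in what follows. The table matched 5 of the 10 members, namely Nkx2-1, Foxa1, Foxa2, Cebpa and Cebpb. Each line gives the 250 bases before a RefSeq start in build GRCm38.p6, 5′ to 3′ on the gene's own strand. Nkx2-1 lies at chr12:56536909-56537158 (minus strand), Foxa1 at chr12:57546112-57546361 (minus), Foxa2 at chr2:148046970-148047219 (minus, the outermost of 3 listed starts), Cebpa at chr7:35119043-35119292 (plus) and Cebpb at chr2:167688665-167688914 (plus). Capitals mark matches, on either strand, to the letters of 8 searched motifs.
Nkx2-1: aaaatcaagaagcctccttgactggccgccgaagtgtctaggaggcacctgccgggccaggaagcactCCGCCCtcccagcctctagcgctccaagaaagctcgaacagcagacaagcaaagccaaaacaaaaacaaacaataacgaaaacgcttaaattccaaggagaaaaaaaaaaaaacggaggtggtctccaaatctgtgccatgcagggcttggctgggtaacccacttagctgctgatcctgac
Foxa1: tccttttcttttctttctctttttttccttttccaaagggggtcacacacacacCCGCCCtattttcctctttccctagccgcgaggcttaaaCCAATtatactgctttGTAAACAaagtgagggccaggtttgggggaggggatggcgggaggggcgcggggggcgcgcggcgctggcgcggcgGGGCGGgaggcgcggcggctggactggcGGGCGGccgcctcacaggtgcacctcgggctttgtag
Foxa2: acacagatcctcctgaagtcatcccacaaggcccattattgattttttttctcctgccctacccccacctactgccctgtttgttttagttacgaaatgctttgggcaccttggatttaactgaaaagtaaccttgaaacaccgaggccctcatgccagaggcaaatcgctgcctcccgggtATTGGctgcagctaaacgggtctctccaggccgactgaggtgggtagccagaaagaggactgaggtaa
Cebpa: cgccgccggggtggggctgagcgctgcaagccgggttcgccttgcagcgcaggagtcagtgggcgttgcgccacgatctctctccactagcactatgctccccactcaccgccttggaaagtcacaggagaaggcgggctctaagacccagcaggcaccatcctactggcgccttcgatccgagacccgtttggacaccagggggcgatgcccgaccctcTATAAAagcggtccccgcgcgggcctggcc
Cebpb: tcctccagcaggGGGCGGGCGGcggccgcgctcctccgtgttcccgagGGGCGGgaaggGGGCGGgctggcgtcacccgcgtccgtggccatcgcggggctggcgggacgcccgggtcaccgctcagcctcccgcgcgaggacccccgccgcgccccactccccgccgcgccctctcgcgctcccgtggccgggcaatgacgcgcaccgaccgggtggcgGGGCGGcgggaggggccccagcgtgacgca
The letters searched were CACTTGA for NKX2-1, TGTTTAC for the FOXA factors, TTNNGCAA for the C/EBP factors and AGATAA for the GATA factors. For the GRHL factors they were AACNNGTT, and for the GC box, which SP and KLF factors bind, GGGCGG. The last were CCAAT for the box of that name and TATAAA for the start site box. Foxa1 was the one gene of these 5 sequences with a match to the FOXA letters, as GTAAACA at positions -141 to -135 from the start, and 3.17% of 32851 promoters of the same length hold such a match. In the sequences shown, GC boxes were found in Nkx2-1 (1 match), Foxa1 (3 matches) and Cebpb (5 matches, the first pair overlapping), and 32.7% of all promoters hold at least 1. Cebpa held TATAAA at -30 to -25, which 12.4% of promoters contain, and Foxa1 and Foxa2 each held a CCAAT box, which 33.8% contain. At the 2 other listed starts of Foxa2, not shown, there were 3 GC box matches and 1 match each to TATAAA and the GATA letters. The Cebpb sequence was 81.6% G and C against 66.4% for Cebpa and a median of 52.4% over all promoters. A match is a string of letters in this window and says nothing of binding in these cells.

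Between 12133251 and 13591876 reads were counted per library. The mitochondrial ribosomal RNAs took 19.6% to 38.9% of them. Pairs of libraries had Pearson correlations of 0.977 to 0.984 across genes in log2 level. The chi-square of their counts was 31.0 to 89.0 times its degrees of freedom, so that each pair differed by more than sampling noise. It was least for libraries 2 and 4, where the mitochondrial ribosomal RNAs took 35.1% and 38.9%, and most for libraries 3 and 4 (19.6% and 38.9%). These RNAs are among the counts, and their part in the chi-square was not tested. The labels do not tie libraries to single mice, so p-values refer to library-to-library spread, part of which may be technical. Of the type II markers, 10 of 10 averaged 10 nRPKM or more. The unit nRPKM is an RPKM adjusted by a size factor, that is, reads per length of the gene model on a scale shared by the libraries. None of 5 endothelial markers reached 1, whereas 6 of 8 leukocyte, 3 of 5 basal, 5 of 5 club, 2 of 5 ciliated and 4 of 6 mesenchymal markers did. Of the other cell types, alveolar type I markers had the highest list median, 36.8 nRPKM against 32.4 for club markers. Among these type I markers, 8 of 10 averaged 10 nRPKM or more. They were led by the water channel gene Aqp5 (185 ± 15.6; SD, n = 4), Ager (156 ± 48.1) and Emp2 (116 ± 20.7). The club marker Scgb1a1 averaged more than any of them, 350 ± 358 nRPKM, with 93.0 in library 3 and 880 in library 2. Pdpn, whose protein the sort selected against, had 21.1 ± 5.34. Ptprc, the defining leukocyte gene, had 0.245 to 0.696 nRPKM, the lowest by mean of the 8 leukocyte markers. The highest of them were Lcp1, with 23.3 to 36.2 nRPKM, and Cd68, with 10.5 to 35.3. Pecam1, the defining endothelial gene, had 0.0578 to 0.193 nRPKM. The X-inactivation transcripts Xist and Tsix, named after their values were seen, were high in library 3 alone (Xist 66.3 nRPKM, against 0.255 to 0.784 in the others). They overlap on opposite strands and could not be told apart without strand.

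All 10 members were expressed. Each averaged 1 nRPKM or more, which 42.4% of all genes reach, and 5 had at least 10, which 13.9% reach, and none reached 100. The median of the 10 means was 9.01 nRPKM, against 5.82 for the 11904 genes with a mean of at least 1. The order by mean level was Nkx2-1, Klf5, Cebpa, Gata6, Foxa2, Grhl2, Foxa1, Cebpb, Cebpd and Sox9, spanning from 94.6 to 1.55 nRPKM. In bulk RNA, fewer cells that express a gene and less RNA per cell cannot be told apart.

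**Figure D1:**
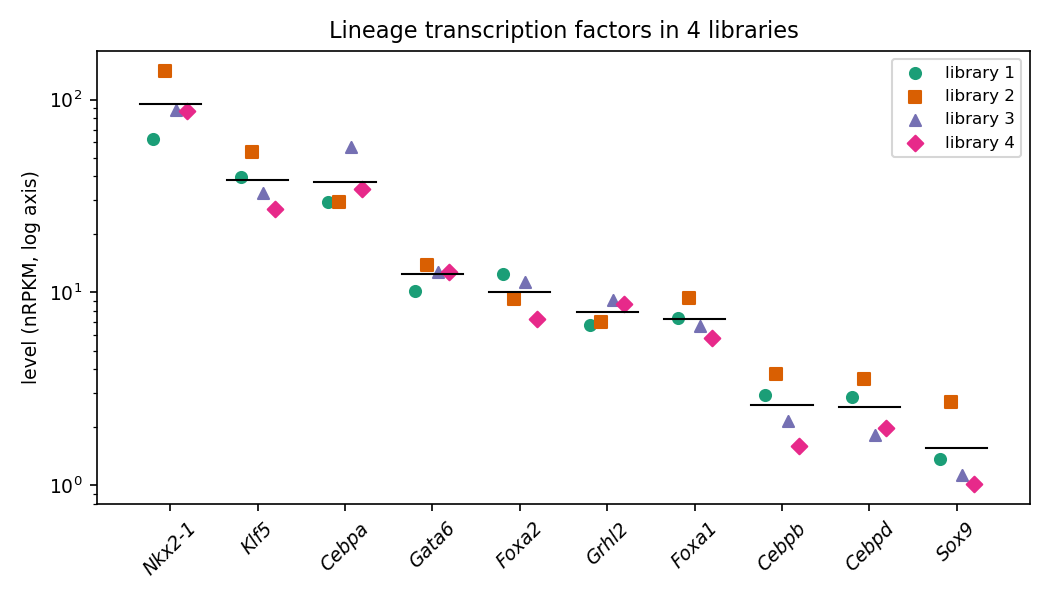
Level of each of the 10 lineage factors in nRPKM (log axis) in the 4 libraries, with a bar at the mean. Nkx2-1 lies above every other member in each library, and Sox9 lies at 1.02 to 2.69 nRPKM.

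Nkx2-1 was the most abundant lineage factor. It had 62.4, 140, 88.7 and 87.2 nRPKM in libraries 1 to 4, a mean of 94.6 ± 32.7 (SD, n = 4), on 3644 to 7130 reads. Its mean lay above 97.8% of the genes with a mean of at least 1. Library 2 was highest and library 1 lowest, a 2.25-fold range, and libraries 3 and 4 were nearly equal. Nkx2-1 varied by a coefficient of variation of 34.5%, where counting error alone gives 1.46%. Without library 1 its range was 1.61-fold, and without library 2 it was 1.42-fold.

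The gene next to Nkx2-1 on the same strand, the surfactant-associated pseudogene transcript Sfta3-ps, was also well expressed, at 23.1, 38.5, 23.9 and 42.2 nRPKM. Its lowest value was in library 1, as for Nkx2-1, but library 3 was nearly as low (1867 reads against 1759), and its highest was in library 4. An antisense transcript that overlaps Nkx2-1 in the reference annotation was not analysed here. Reads could be shared with another annotated gene over 1.40% of the 50-base words of the longest Nkx2-1 transcript.

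The forkhead genes Foxa1 and Foxa2 were expressed at similar, moderate levels. Foxa2 had 12.5, 9.24, 11.4 and 7.33 nRPKM (mean 10.1 ± 2.30; SD, n = 4), and Foxa1 had 7.40, 9.38, 6.67 and 5.77 (mean 7.31 ± 1.54). Foxa2 was highest in library 1 and Foxa1 in library 2, and both were lowest in library 4. Foxa2 exceeded Foxa1 in 3 of 4 libraries and was level with it in library 2, where Foxa1 made up 50.4% of their summed nRPKM against 37.0% in library 3. The difference on the log2(nRPKM + 1) scale was 0.41 ± 0.34, which did not hold in every library (exact two-sided test by permutation of signs, p = 0.25, adjusted over 45 pairs 0.274). No 50-base word of the longest transcript of either gene occurs in another annotated gene. Inexact matches and matches outside annotated genes were not examined. The third family member, Foxa3, had a mean of 0.477 nRPKM.

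Gata6 had the lowest coefficient of variation of the 10 (12.8%, next to 15.0% for Grhl2), with 10.2, 13.9, 12.8 and 12.8 nRPKM (mean 12.4 ± 1.59; SD, n = 4). Library 1 was lowest, and the other 3 libraries lay within 1.08-fold of each other. It was the one GATA gene at a mean of at least 1 nRPKM: Gata4, the next, had 0.129 and Gata5, Gata2, Gata3 and Gata1 less. Gata4 is the family member known for heart and gut endoderm.

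Among the 3 C/EBP members, Cebpa predominated. Cebpa had 29.6, 29.4, 56.6 and 34.6 nRPKM in libraries 1 to 4 (mean 37.5 ± 12.9; SD, n = 4) on 1376 to 3123 reads. Library 3 stood above the other 3, which lay within 1.18-fold of each other. Cebpb, known for acute phase and inflammatory responses, had 2.94, 3.78, 2.16 and 1.59 nRPKM (mean 2.62 ± 0.953), on 39 to 101 reads. Cebpd, which is also induced in inflammation and by glucocorticoid, had 2.87, 3.56, 1.82 and 1.98 (mean 2.56 ± 0.814), on 73 to 143 reads. Both were higher in libraries 1 and 2 than in 3 and 4, the opposite of Cebpa, which was higher in libraries 3 and 4.

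Cebpa therefore held 83.6%, 80.0%, 93.4% and 90.6% of the summed nRPKM of these 3 genes in libraries 1 to 4. With their relative Cebpg in the sum it held 58.0%, 61.5%, 72.7% and 61.0%. It exceeded Cebpb by 10.1, 7.77, 26.2 and 21.7 times. The log2(nRPKM + 1) difference was 3.40 ± 0.71 to Cebpb and 3.41 ± 0.72 to Cebpd, with Cebpa above in each library (exact sign-flip permutation test, two-sided, p = 0.13, the least that 4 libraries allow, adjusted 0.144). Cebpb and Cebpd did not differ beyond their spread, with a difference of 0.014 ± 0.16. This rests on the authors' gene model for Cebpd: with the longest reference transcript as length, Cebpb lay above Cebpd in 4 of 4 libraries, by 0.55 ± 0.20 (exact permutation test, p = 0.13, adjusted 0.141). Of the other family members, Cebpg, a dimer partner without an activation domain of its own, had 15.6 ± 3.27 nRPKM, and no read was counted for Cebpe, a factor of granulocytes.

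The low levels of Cebpb and Cebpd carry more error than the rest. For Cebpb in library 4 the exact 95% Poisson interval of the 39 reads was 27.7 to 53.3, and in library 2 that of 101 reads was 82.3 to 123. Of the annotated sequence, 18.1% of the 50-base words of the Cebpb transcript also occur in Tmem189, which overlaps it on the opposite strand, and 13.9% of those of Cebpd occur in Spidr. Tmem189 had 9.93, 8.35, 8.76 and 5.67 nRPKM and Spidr 3.99, 4.35, 4.04 and 4.84. Strand use in counting is not given in the sources used here, so reads of these overlaps cannot be assigned. Leukocyte markers, whose cells also express C/EBP genes, summed to 97.3, 101, 57.5 and 52.9 nRPKM over 8 genes, and so were higher in libraries 1 and 2 as well. The sums of basal and mesenchymal markers were also higher in these libraries. Their part in the levels of Cebpb and Cebpd was not tested.

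**Figure D2:**
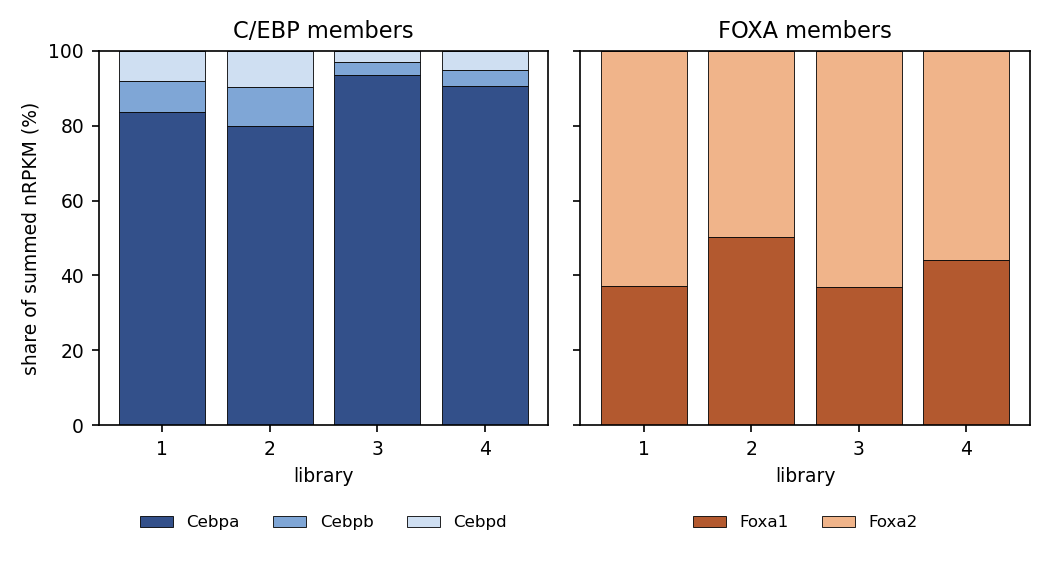
Share of each gene in the summed nRPKM of the C/EBP members (left) and the FOXA members (right), in percent, by library. Cebpa holds 80.0% to 93.4%, and Foxa1 37.0% to 50.4%.

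Klf5 was the second most abundant member by the deposited values. It had 39.7, 53.7, 32.7 and 27.1 nRPKM (mean 38.3 ± 11.5; SD, n = 4), highest in library 2 and lowest in library 4. The gene length implied by the deposited values, scaled so that the median gene equals its longest reference transcript, was 1735 bases for Klf5, 0.518 times the longest reference transcript. For 8 other members, all but Cebpd (0.606), this ratio lay between 0.991 and 1.02. The rank of Klf5 therefore rests on the authors' gene model: with the longest transcript as length, Klf5 lay below Cebpa (log2 difference -0.90), and with the deposited values it lay above it in 2 of 4 libraries (0.037 ± 0.73). Of its relatives, Klf6, an injury-responsive factor, had 37.2, 19.5, 18.8 and 21.9 nRPKM. Klf4, a factor of barrier epithelia, had 1.86 ± 0.875 nRPKM and Klf2, best known in endothelium, 0.333 ± 0.201.

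Grhl2 was steady at 6.78, 7.01, 9.15 and 8.68 nRPKM (mean 7.91 ± 1.18; SD, n = 4), lower in libraries 1 and 2 than in libraries 3 and 4. It was the highest of its family, with Grhl1 at 2.37 ± 0.351 and Grhl3 at 1.21 ± 0.381. Junction and epithelial genes known as GRHL2 targets were all present, with 8 of 8 averaging 1 nRPKM or more and 7 of 8 averaging 10 or more. The adhesion genes Cdh1 (147 ± 15.97 nRPKM) and Epcam (54.1 ± 3.47) and the claudin gene Cldn3 (52.8 ± 16.9) led them. None of the 8 was called variable between libraries, and 1, the claudin gene Cldn4 (19.4, 10.04, 5.24 and 7.82 nRPKM), had an unadjusted p under 0.05 in edgeR's quasi-likelihood fit. The shares of all tested genes were 0.0152% and 5.13%.

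Sox9 was the lowest member. It had 1.37, 2.69, 1.13 and 1.02 nRPKM (mean 1.55 ± 0.772; SD, n = 4) on 116, 198, 98 and 69 reads. Library 2 stood above the others, a 2.63-fold range that fell to 1.34-fold without that library. The exact 95% Poisson intervals of the read counts were 171 to 228 in library 2 and 53.7 to 87.3 in library 4. The sum of club cell markers was also highest in library 2, at 1060 nRPKM over 5 genes against 150 to 320 in the others. Scgb1a1 alone gave 880 of it. Of the 5 genes 4 were highest in library 2, and Scgb3a1 was highest in library 1 (4.76 nRPKM against 0.848 in library 2). The part of club cells in the Sox9 value was not tested. Of 9 genes of the distal tip programme, Sox9 included, 7 had a mean of at least 1 nRPKM. Bmp4, a tip signal (143 ± 39.2), Id2, a tip marker that inhibits bHLH factors (55.1 ± 14.3), and Etv5 (26.3 ± 9.63) were the highest. Sox11, a factor of embryonic cells, had 0.0226 nRPKM, and Lin28b, an embryonic RNA-binding protein gene, had 1 read in all. Sox8 and Sox10, the closest relatives of Sox9, had no read.

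Some neighbours in the order of level were set apart by a step and others were not. Of 45 pairs of members, 39 had the same direction in all 4 libraries, and 6 did not. From the top, Nkx2-1 exceeded Klf5 by 1.27 ± 0.44 on the log2(nRPKM + 1) scale, Cebpa exceeded Gata6 by 1.47 ± 0.43, Foxa1 exceeded Cebpb by 1.22 ± 0.14 and Cebpd exceeded Sox9 by 0.49 ± 0.17, each in 4 of 4 libraries (exact permutation test, p = 0.13 each, adjusted 0.144). Neighbours that did not differ beyond their spread were Klf5 and Cebpa, Gata6 and Foxa2 (0.29 ± 0.44), Foxa2 and Grhl2 (0.30 ± 0.42), Grhl2 and Foxa1 (0.11 ± 0.42), and Cebpb and Cebpd. The genes from Gata6 to Foxa1 were still not at 1 level. Gata6 exceeded Grhl2 by 0.60 ± 0.20 and Foxa1 by 0.70 ± 0.29, each in 4 of 4 libraries (exact permutation test, p = 0.13 each, adjusted 0.144). The step from Cebpd to Sox9 rests on the authors' gene model too: with the longest reference transcript as length the difference was 0.021 ± 0.21, with Cebpd above in 2 of 4 libraries. With that length 40 of 45 pairs had 1 direction in all 4 libraries. No pair could pass 0.05, since 4 libraries allow no p below 0.13.

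No member was called variable between libraries, where a call means a spread above the trend of genes at a like level. A gene that is not called may still vary. The club marker Scgb3a2, for example, had 0.851 to 20.3 nRPKM and was not called (edgeR's quasi-likelihood fit, adjusted p = 0.158). In edgeR's quasi-likelihood fit over 13156 genes with Benjamini-Hochberg adjustment, 0 of 10 members had an adjusted p under 0.05, and 0.0152% of all genes tested did (2 genes, Xist and Tsix). Adjusted p ranged from 0.981 for Sox9 (unadjusted p = 0.069) to 0.997. At an unadjusted p under 0.05 there were also 0 of 10 members, against 5.13% of all genes, and DESeq2 marked 0 of 10 as dispersion outliers, against 0.345%. Without the filter on low counts the edgeR fit called 0 of 10, against 0.321%. In that fit Sox9 alone of the members had an unadjusted edgeR p under 0.05 (0.041; adjusted 0.802), against 5.84% of genes. Without library 1 it was again Sox9 alone (0.027; adjusted 0.940), against 5.12% of genes. In size, 8 of 10 members had an SD over libraries above the median of tested genes (0.22 log2 units), led by Nkx2-1 (0.47), Cebpa (0.43) and Klf5 (0.41). Gata6 (0.18) and Grhl2 (0.19) lay below that median. The log2(nRPKM + 1) scale understates the spread of low genes. By coefficient of variation, Sox9 (49.7%, with 9.79% from counting) and Cebpb (36.4%, with 12.4% from counting) lay above Nkx2-1 (34.5%).

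**Figure D3:**
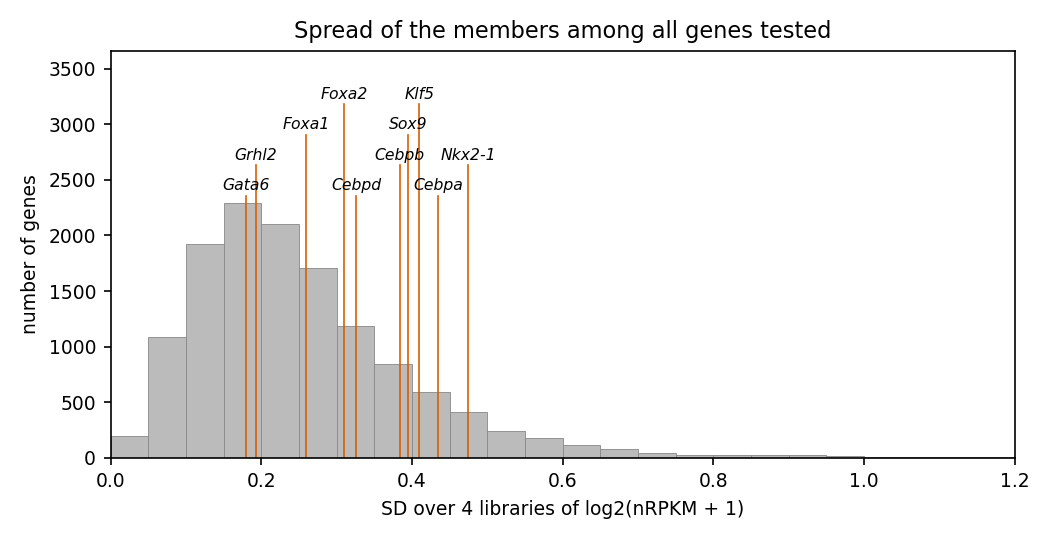
Histogram of the SD over the 4 libraries of log2(nRPKM + 1) for the 13156 genes tested (grey), with the 10 members as lines. Nkx2-1 lies farthest right at 0.47, and Gata6 farthest left at 0.18.

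The members did not share a single order of the libraries. Library 2 held the highest level of 7 of 10 members, where 25.4% of tested genes were highest in it. Library 4 held the lowest of 5 of 10, against 26.7% of tested genes. Foxa1, Cebpb, Klf5 and Sox9 shared the order 2, 1, 3, 4 from high to low, which 4.9% of tested genes had, and Cebpd differed from it only in the order of libraries 3 and 4. Nkx2-1 and Gata6 shared the order 2, 3, 4, 1. Cebpa and Grhl2 were both highest in library 3, then in library 4. These are descriptions of 4 libraries and carry no test of shared control.

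**Figure D4:**
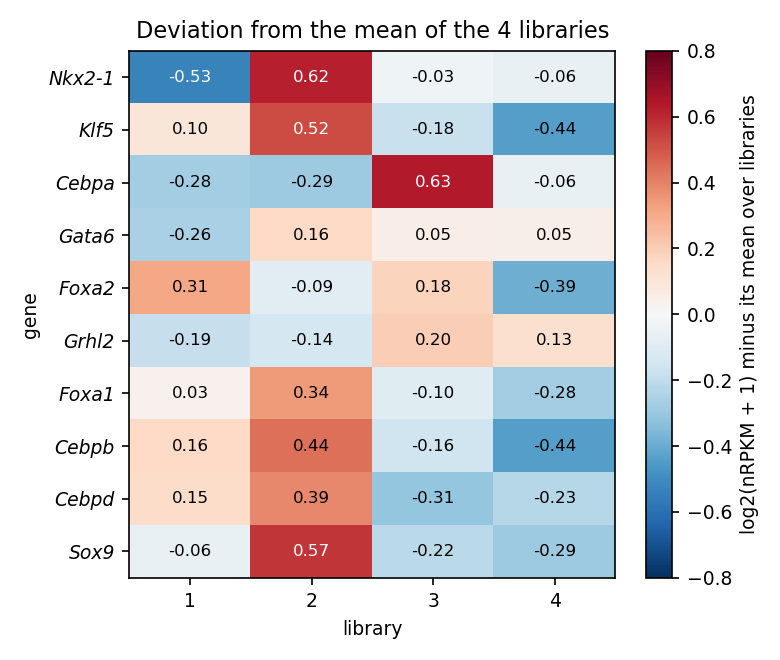
Deviation of each member in each library from its own mean over the 4 libraries, in log2(nRPKM + 1), with genes in order of mean level. Library 2 is positive for 7 of the 10 genes, and Cebpa is positive in library 3 only.

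Type II genes that NKX2-1, FOXA or C/EBP factors are known to activate were set beside their regulators. All 12 listed genes averaged 10 nRPKM or more and 10 of them reached 100, led by Sftpc, Sftpb and Lyz2. All 12 were lowest in library 1, against 26.8% of tested genes, and they include all 10 type II markers. Nkx2-1 was also lowest there, at -0.53 log2 units from its mean against a mean deviation of -0.76 for the 12. The other regulators did not share this. Foxa2 was highest in library 1 (0.31), and Foxa1 (0.03), Cebpb (0.16) and Cebpd (0.15) lay above their means there. Cebpa lay below its mean (-0.28) but was lowest in library 2. In the other 3 libraries the target genes did not keep the order of Nkx2-1: Sftpb was highest in library 2 (4522 nRPKM) with Nkx2-1, whereas Sftpc was highest in library 3 (14834 nRPKM) with Cebpa. The level of Sftpc was 101, 59.8, 167 and 121 times that of Nkx2-1 in libraries 1 to 4, and that of Sftpb 29.4, 32.3, 36.8 and 30.3 times. The ratio to Nkx2-1 thus ranged less for Sftpb than for Sftpc. Basal cell markers were highest in library 1, with a sum of 113 nRPKM over 5 genes against 15.4 to 64.4 in the others. Mesenchymal markers were highest there too, with a sum of 28.3 nRPKM over 6 genes against 5.09 to 17.1. At an unadjusted p under 0.05 there were 4 of 4 basal and 5 of 5 mesenchymal markers tested, against 5.13% of all genes tested. So were 4 of 4 club and 5 of 7 leukocyte markers tested. Of these 4 lists, 0 markers were called in the fit with the filter on low counts, against 0.0152% of all genes. Without that filter the edgeR fit called Scgb1a1, Scgb3a2, Krt5, Krt14, Laptm5 and Dcn, against 0.321% of all genes. Their adjusted p ranged from 0.000184 for Scgb3a2 to 0.0193 for Krt14. Without library 1 Scgb1a1 and Scgb3a2 were called (edgeR fit, adjusted p = 0.0193 each), among 6 of 13290 genes. Whether basal and mesenchymal cells have a part in the low Nkx2-1 of library 1 was not tested.

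Other transcription factors of lung epithelium went with the members in part. Of 28 listed, 20 had a mean of at least 1 nRPKM and 9 at least 10, with a list median of 4.83 nRPKM. Among the highest were Id2 and Nfia (15.96 ± 3.48 nRPKM), a nuclear factor I gene of lung maturation. Library 1 held the lowest level of 15 of these 20, against 26.8% of tested genes. None of 24 tested was called, against 0.0152% of all genes, and 3 had an unadjusted p under 0.05, against 5.13%. In the edgeR fit without the filter on low counts, Hmga2 was called (adjusted p = 0.0133), against 0.321% of all genes. Factors of the conducting airway were low: Sox2 had 0.389 nRPKM, the basal cell factor Trp63 0.577 and the cilia factor Foxj1 0.0787.

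**Figure D5:**
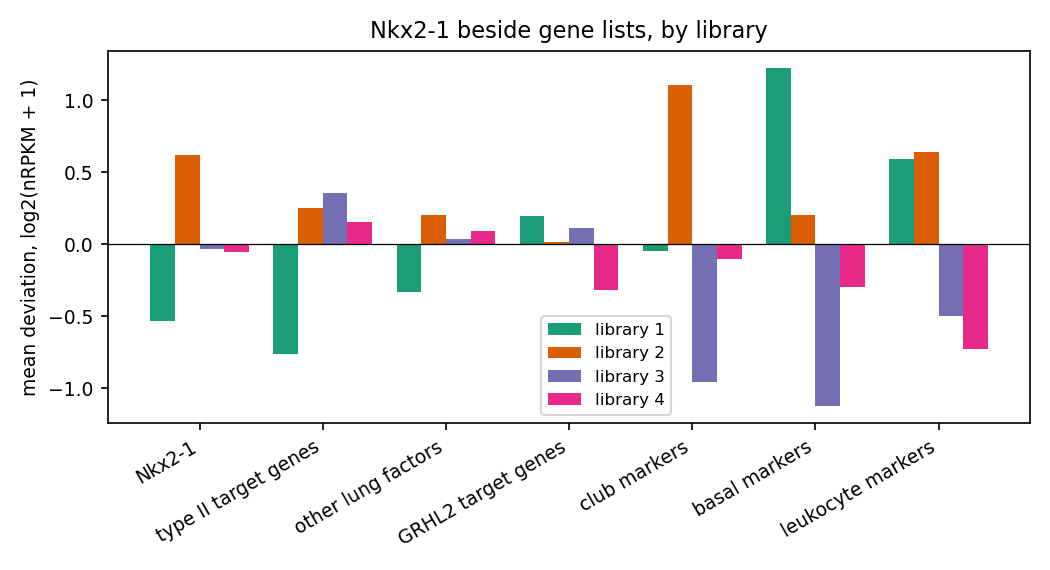
Deviation of Nkx2-1 and mean deviation of 6 gene lists (members with a mean of at least 1 nRPKM) from the mean over the 4 libraries, in log2(nRPKM + 1), by library. In library 1 Nkx2-1 (-0.53) and the type II target genes (-0.76) are low while basal markers are high (1.23).

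Stomach and gut lineage genes, which Nkx2-1 holds down in mouse lung tumours, were mostly near 0. Of 13 listed, 2 had a mean of at least 1 nRPKM, the stomach gene Gkn2 (36.6 ± 7.67) and the protease gene Ctse (18.4 ± 3.96). The gut regulators Hnf4a and Cdx2 had 0.347 and 0.0177, and no read was counted for Pdx1, Gkn1 or Tff1. Tff2 had 2.58 nRPKM in library 1, on 30 reads, and 0 to 0.430 in the others. A count of 0 allows up to 3 reads, which is 0.221 to 0.247 CPM in these libraries. Intervals and floors cover counting error only.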

How the data were processed

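Levels and counts of 4 libraries were taken from 1 deposited table per library. A count, per the file headers, holds reads that align uniquely to a gene model. The level is an RPKM adjusted by a size factor (nRPKM), which the authors made from the count. The submitters' processing notes name GSNAP and the mm9 build. Not given in the sources used here are their versions, the annotation, the strand setting and any filter. Genes were matched by Entrez identifier to symbols of a GRCm38.p6 RefSeq table, which named 25035 of 28096 identifiers. Levels were logged as log2(nRPKM + 1), which understates differences of low genes. Spread between libraries was tested with edgeR 4.0.16 (R 4.3.3) on the counts (filterByExpr, TMM scaling, intercept-only quasi-likelihood fit, quasi-dispersion over its trended prior against the F distribution, Benjamini-Hochberg at 0.05), checked on simulated counts. Members were compared within libraries by two-sided exact sign-flip tests over 45 pairs. Shared 50-base words, transcript lengths and overlapping genes come from GENCODE transcripts of GRCm38. Alternatives were RLE scaling, no filter, DESeq2 1.42.0 dispersion outliers, a robust prior (added after seeing the data), removal of mitochondrial ribosomal RNA, a pseudocount of 0.1, reference transcript lengths and leaving out each library. Named genes are the members, the 3 highest genes of each other list, genes called variable, the nearest profiles and adjacent genes; others were named after their values were seen. Some named genes, and an allele that all genotypes share, are not reported here. The members and lists were chosen with earlier results of these data known.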

Additional observations from a re-analysis of the deposited data

Results flagged for a closer look

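Among 50 sets of 4 values examined (the members, the named genes of the other lists and the family ratios), 1 had a library far from the rest. Klf6, a relative of Klf5, had 37.2 nRPKM in library 1 against 19.5, 18.8 and 21.9 in libraries 2 to 4, a gap of 0.832 of the whole range. Chance flags about 1 in 20 such sets. None of the 10 members was set apart in this way.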

How the results depend on the processing

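The count of members called variable between libraries stayed 0 of 10 under all 9 alternatives, which does not show that the members are steady. The count over all genes, 2 with edgeR, was 66 without the filter, 0 with the robust prior (654 genes at an unadjusted p under 0.05), and 71 by DESeq2, and lay from 0 (without library 2, and without library 3) to 6 (without library 1) when a library was left out. Unadjusted p was under 0.05 for 640 genes without library 2 and for 619 without library 3. The cause was not tested. Mean levels of the members moved by less than 1 SD in all 60 recomputations, by leaving out a library or rescaling. Only the rescaling is a check here, since leaving out 1 of 4 libraries cannot move a mean by 1 SD. Of the 12 pair differences followed, 9 kept the sign of their mean throughout. A pair with the same direction in all 4 libraries must keep it when a library is left out. With CPM over the longest reference transcript, Cebpb minus Cebpd was 0.55, in 4 of 4 libraries, and Cebpd minus Sox9 was 0.021, in 2 of 4. Klf5 minus Cebpa was -0.90 with that length, and -0.23 to 0.31 when a library was left out. Grhl2 minus Foxa1 ranged from -0.026 to 0.27 and Cebpb minus Cebpd from -0.036 to 0.086 in the same way. Members with their lowest level in libraries 1, 2, 3 and 4 numbered 3, 1, 1 and 5. In CPM without factors, which shifts the median gene by 0.18, -0.08, 0.17 and -0.24 log2 units, they numbered 0, 2, 0 and 8. With mitochondrial ribosomal RNA left out, library 2 held 2. Depth limits Cebpb, Cebpd and Sox9, which rest on 39 to 198 reads. No paired analysis was possible because there is 1 group and its labels carry no replicate numbers.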

Other observations

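Partners and regulators of the lineage factors were present in most cases, with 12 of 17 at a mean of at least 1 nRPKM. Trib1, a pseudokinase that promotes breakdown of C/EBPα, had 26.4, 34.9, 29.5 and 23.1 nRPKM, and Park7, a stress sensor, 38.7, 22.6, 36.1 and 19.7. The coactivator gene Wwtr1 (TAZ), whose protein binds NKX2-1, was steady at 17.6, 18.6, 16.3 and 19.7. The GATA cofactor genes Zfpm1 and Zfpm2 were low at 0.680 and 0.181.

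Profiles over the 4 libraries were compared with those of 3906 genes with a mean of at least 10 nRPKM, by the root mean square difference of centred log2(nRPKM + 1). With 4 libraries many genes lie close to any profile, so this is a description. The nearest to Nkx2-1 was Srebf1, a regulator of lipid synthesis, at 0.066 log2 units, with 8.99, 19.0, 12.7 and 13.03 nRPKM, followed by 9130221H12Rik and Pigu. Nearest to Cebpa were Pccb, Os9 and Pak4, the first at 0.076. Sox9 lay nearest to the basement membrane collagen gene Col4a2, at 0.033, with 71.8, 119, 65.0 and 63.6 nRPKM. Nearest to Klf5 were an identifier without a symbol and Tmem179b, to Foxa1 Cmtm8 and Ly6e, to Foxa2 Eif6, Tmem234 and Cdc34, to Gata6 Tsc2, Atp6v1c2 and Ctnnd1, to Grhl2 Kmt5a and Larp1, and to Cebpd Ube2d3, Ly6g6c and Atp5pb.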
